A study of Mus musculus with 37 samples.

Results

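The Zscan4 genes of the mouse form a cluster of near-identical copies on chromosome 7. All rows whose gene symbol begins with Zscan4 were taken from the 4 RNA-seq tables, which gave 9 members: Zscan4a, Zscan4b, Zscan4c, Zscan4d, Zscan4e, Zscan4f, Zscan4-ps1, Zscan4-ps2 and Zscan4-ps3. The tables list 25053 genes for ZH GV oocytes, 19033 for CabZ GV oocytes, 24305 for CabZ 2-cell embryos and 15855 for 2-cell embryos from injected oocytes, and all 9 members were present in each except the CabZ GV table, which lists 7 (Zscan4b and Zscan4e are not among its genes).

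Zscan4 genes encode nuclear proteins with a SCAN domain and zinc fingers. In the mouse they are transcribed in a burst in the late 2-cell embryo, around the main wave of zygotic genome activation, and in a small fraction of embryonic stem cells at any time, where they are linked to telomere lengthening and genome stability. The copies arose by tandem duplication, and some no longer encode a full protein. The question was how each copy contributes to the family's RNA at each stage and in each mutant.

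Wild-type mice were C57BL/6 and the floxed Hira and Cabin1 lines were on C57BL/6 backgrounds. The paper states no background for the Zp3-Cre line crossed to them. ZH KO oocytes carried floxed Hira alleles and CabZ KO oocytes floxed Cabin1 alleles, both deleted by Zp3-Cre, a transgene that is active in growing oocytes, so only the oocyte and what it passes to the embryo lose the gene. Hira and Cabin1 belong to one complex, a chaperone that deposits histone H3.3. The Het controls carried Zp3-Cre with 1 floxed allele, so control oocytes had also undergone Cre recombination. Fully grown germinal vesicle (GV) oocytes were sequenced from both lines, and 2-cell embryos from the CabZ line, for which the sources used here do not say whether they were fertilised or parthenogenetic. In the remaining experiment, wild-type GV oocytes received Zscan4d RNA (Zscan4 OE) or GFP RNA, were matured in vitro and activated without sperm, and were collected as 2-cell embryos. There were 4 libraries per group, except 3 for Zscan4 OE, of 31 RNA-seq libraries in all. The methods state pools of 10 oocytes per library and the labels individual cells, and nothing ties libraries to separate females, so p-values measure the spread between these libraries only. In such samples, fewer cells of a type and less RNA per cell cannot be told apart. Animal ages are not given in the sources used here.

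Reads on genes ranged from 8996897 to 15082556 per ZH library, from 9115872 to 12468940 per CabZ GV library, from 5819316 to 8239523 per CabZ 2-cell library and from 9885415 to 21869858 per library from injected oocytes. Each library correlated with the mean of the rest of its group at r of at least 0.934, the lowest being CabZ KO 2-cell replicate 4 and then Zscan4 OE replicate B (0.949). The 10 oocyte markers (Zp1, Zp2, Zp3, Gdf9 and others) each averaged at least 1 FPKM in every group. The granulosa and cumulus markers listed (9 of 10 in the ZH table, 7 in each CabZ table and 4 in the remaining table) summed to at most 2.15 FPKM in any library. FPKM are reads divided by the length of the gene, introns included, and by the reads of the library. For CabZ libraries these were the reads on the listed genes, and for the others the FPKM are as deposited. Hira had 2 to 14 reads per ZH Het library and 0 to 13 per ZH KO library, too few to tell the genotypes apart. Cabin1 was lower in all CabZ KO libraries, with 0.0125 to 0.0482 FPKM against 0.0891 to 0.159 FPKM in CabZ Het GV oocytes, and 0.0640 to 0.181 FPKM against 0.229 to 0.455 FPKM in 2-cell embryos.

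The members lie between 10794242 and 11614112 on chromosome 7 of GRCm38 (mm10). In order along the chromosome they are Zscan4a (10794242 to 10799057), Zscan4b (10900740 to 10905050), Zscan4c (11005745 to 11010547), Zscan4-ps1 (11065139 to 11069691), Zscan4d (11161374 to 11166159), Zscan4e (11306378 to 11310682), Zscan4f (11397915 to 11402318), Zscan4-ps2 (11514310 to 11519111) and Zscan4-ps3 (11609308 to 11614112). Zscan4c, Zscan4f, Zscan4-ps2 and Zscan4-ps3 are on the plus strand and the other 5 on the minus strand. Each has 4 exons in GENCODE M21. The names do not settle which copies are coding: the tables list the 3 ps genes as protein coding, with coding sequences of 1518 bases each, and Zscan4a as an unprocessed pseudogene.

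How far the copies can be told apart sets how far their levels can be. A coding stretch of 60 bases was chosen as the one with the most positions at which members differ. It spans bases 597 to 656 of the Zscan4c coding sequence (chr7:11009072-11009131, plus strand), lies in 1 exon of every member, is exonic but not annotated as coding in Zscan4a, and is read here 5′ to 3′ along each gene from GENCODE M21, with capitals at bases that differ from Zscan4c.
Zscan4c: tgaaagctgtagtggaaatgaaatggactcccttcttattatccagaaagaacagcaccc
Zscan4-ps2: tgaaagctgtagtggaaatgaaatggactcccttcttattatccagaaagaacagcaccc
Zscan4f: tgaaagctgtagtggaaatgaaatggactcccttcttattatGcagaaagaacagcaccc
Zscan4d: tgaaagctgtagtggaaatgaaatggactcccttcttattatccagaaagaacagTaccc
Zscan4-ps3: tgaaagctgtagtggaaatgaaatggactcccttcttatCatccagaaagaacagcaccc
Zscan4-ps1: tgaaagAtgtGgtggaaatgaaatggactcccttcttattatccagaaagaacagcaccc
Zscan4a: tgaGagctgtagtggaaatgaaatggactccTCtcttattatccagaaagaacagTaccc
Zscan4b: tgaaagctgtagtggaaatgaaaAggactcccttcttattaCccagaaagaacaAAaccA
Zscan4e: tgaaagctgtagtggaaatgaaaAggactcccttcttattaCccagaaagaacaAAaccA

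Members differed at 12 of the 60 positions. Zscan4c and Zscan4-ps2 were identical over this stretch, as were Zscan4b and Zscan4e, and Zscan4f differed from Zscan4c at 1 base. Over whole transcripts, the 36 pairs were 96.6% to 99.8% identical with a median of 97.5%. Zscan4f and Zscan4-ps2 differed at 4 of 1806 aligned bases, Zscan4b and Zscan4e at 5 of 1722, and Zscan4c and Zscan4f at 7 of 1806. Of all 150-base windows, the length of 1 read, 87.4% of those in Zscan4-ps1 and 87.0% of those in Zscan4d occurred in no other member. Only 13.8% did in Zscan4f, 24.0% in Zscan4e, 34.2% in Zscan4b, 36.4% in Zscan4-ps2 and 39.0% in Zscan4c, with Zscan4-ps3 at 63.6% and Zscan4a at 74.9%. Zscan4-ps1 and Zscan4d thus had the most sequence of their own, and each of the copies with the least had a near-identical partner, Zscan4b with Zscan4e and Zscan4c with Zscan4f and Zscan4-ps2.

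Values between 1 and 200 reads came within 0.05 of a whole number of reads for 78.2% of 395526 values of other genes, and for 11 of 80 values of the members (13.8%). The members' values were thus mostly fractions of reads. How reads that align to several copies were counted is not given in the sources used here, so each member's level below is an estimate. The summed share of Zscan4c, Zscan4f and Zscan4-ps2 is therefore given beside the single shares. Counts of members set beside shares over all genes only describe the members, because near-identical copies cannot be taken as independent.

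**Figure D1:**
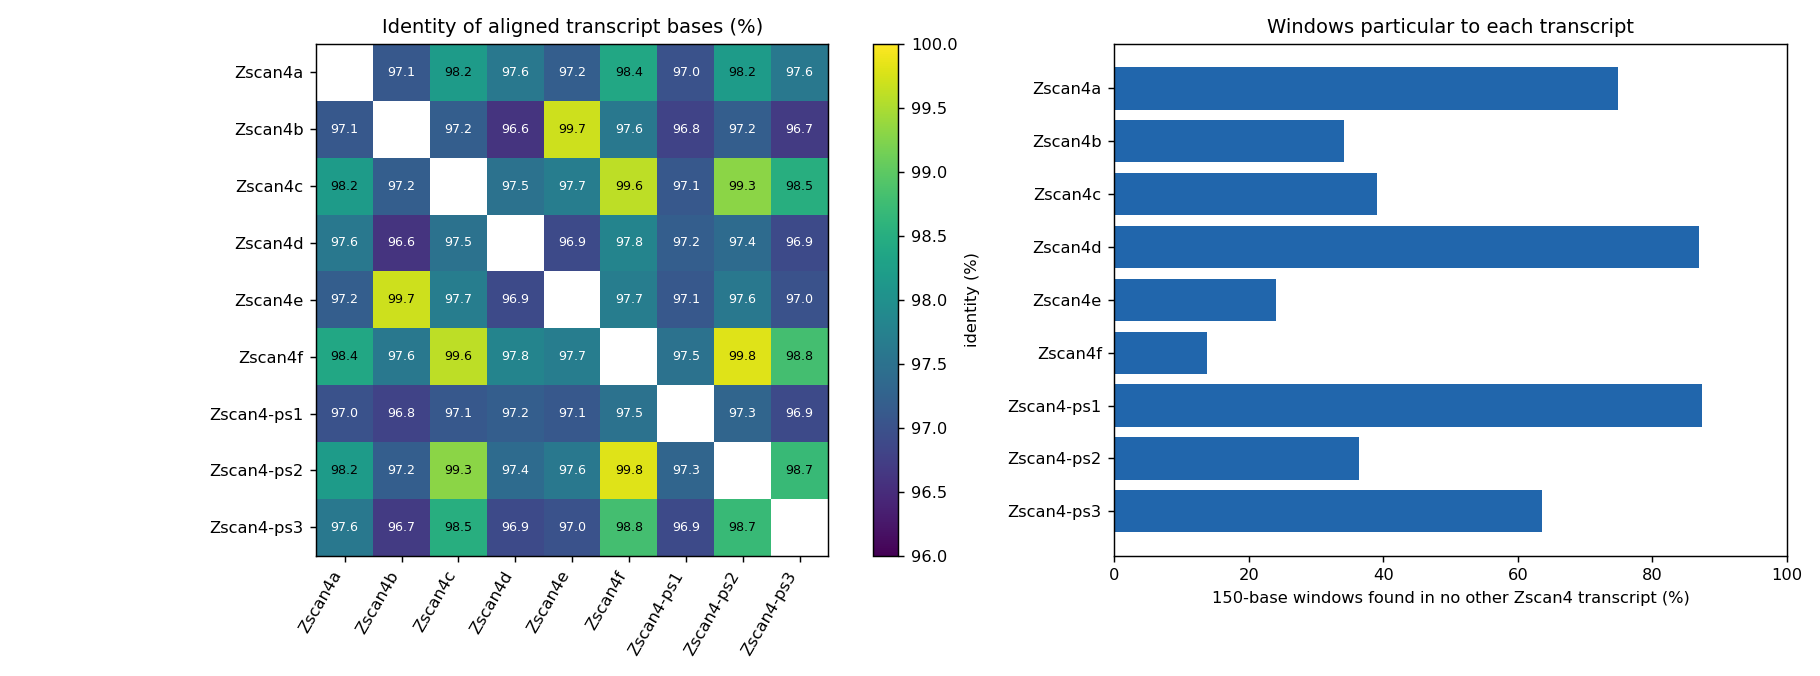
Left, percent identity of aligned transcript bases for each pair of Zscan4 members (96.6% to 99.8%). Right, percent of the 150-base windows of each transcript that occur in no other member, from 13.8% in Zscan4f to 87.4% in Zscan4-ps1.

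The promoters of 4 members are in the RefSeq table used (GRCm38.p6): Zscan4b, Zscan4c, Zscan4d and Zscan4f. Zscan4c, Zscan4d and Zscan4f rose in ZH KO oocytes, while Zscan4b stayed at or below 0.0977 FPKM in every ZH library. The 250 bases before RefSeq's annotated start, which differs between the copies, are shown for all 4. They come from chr7:11005495-11005744 (plus strand), chr7:11397665-11397914 (plus), chr7:11166149-11166398 (minus) and chr7:10905051-10905300 (minus). Capitals mark matches to TATAAA, the TATA box, and to TGATTNAAT, the start of a motif of the 2-cell activator Dux, both searched on both strands.
Zscan4c: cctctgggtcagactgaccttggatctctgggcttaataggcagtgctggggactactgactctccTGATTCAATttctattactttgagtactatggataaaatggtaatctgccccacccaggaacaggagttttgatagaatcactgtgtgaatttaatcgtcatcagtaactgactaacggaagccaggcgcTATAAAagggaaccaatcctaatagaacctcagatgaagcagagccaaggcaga
Zscan4f: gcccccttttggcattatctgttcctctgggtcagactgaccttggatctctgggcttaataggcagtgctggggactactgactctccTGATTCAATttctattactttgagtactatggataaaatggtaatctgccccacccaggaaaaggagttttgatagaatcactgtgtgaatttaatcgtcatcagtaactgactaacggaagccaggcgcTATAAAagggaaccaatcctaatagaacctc
Zscan4d: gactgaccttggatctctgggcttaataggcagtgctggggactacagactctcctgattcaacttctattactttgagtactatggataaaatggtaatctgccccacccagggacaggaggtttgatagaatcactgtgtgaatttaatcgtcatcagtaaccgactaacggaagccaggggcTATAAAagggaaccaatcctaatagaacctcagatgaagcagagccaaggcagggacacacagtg
Zscan4b: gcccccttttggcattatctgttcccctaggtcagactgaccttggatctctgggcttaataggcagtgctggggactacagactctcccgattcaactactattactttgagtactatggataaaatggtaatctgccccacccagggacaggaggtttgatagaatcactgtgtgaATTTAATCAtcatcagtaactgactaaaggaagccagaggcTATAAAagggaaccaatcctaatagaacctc

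All 4 held TATAAA, which 12.4% of the 32851 promoters in the table did over the same length. It lay 31 to 26 bases before the start in Zscan4b and Zscan4f, 54 to 49 in Zscan4c and 65 to 60 in Zscan4d. TGATTNAAT, in 0.658% of promoters, was found in Zscan4c and Zscan4f on the plus strand of the gene and in Zscan4b on the opposite strand, at another place, and these letters were not found in the Zscan4d window. The longer form of that motif, TGATTNAAT with CA after it (0.0304% of promoters), and TGCACAC, a motif of the Zscan4 protein (3.67%), were found in none of the 4. Zscan4c and Zscan4f promoters differed at 1 of 227 aligned bases, and the other pairs at 6 to 13 aligned bases.

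In ZH Het GV oocytes the family's RNA was mostly Zscan4-ps1. It had 17.7, 19.6, 17.6 and 17.4 FPKM in replicates 1 to 4, which was 79.1% to 83.7% of the summed family level of 21.04 to 24.7 FPKM. Zscan4d followed with 1.81 to 3.49 FPKM and Zscan4c with 0.588 to 1.66 FPKM, and these ranges did not overlap. Zscan4f stayed at or below 0.388 FPKM, and Zscan4-ps2 and Zscan4-ps3 at 0 to 7.34 and 0 to 2.80 reads per library. Zscan4a, Zscan4b and Zscan4e were at or near 0.

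In ZH KO GV oocytes all 6 members that averaged at least 1 FPKM over the 8 libraries rose. Zscan4d had 33.9, 42.3, 80.8 and 78.9 FPKM in replicates 1 to 4, above every ZH Het library (mean 59.0 ± 24.4 against 2.57 ± 0.691, SD, n = 4 each). On the log2(FPKM + 1) scale used throughout, its fold change came to 3.99 (95% interval 3.35 to 4.63, adjusted p = 9.4e-06 from limma with Benjamini-Hochberg adjustment over all genes tested). This scale understates changes of low genes.

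Zscan4c, one of the copies with a full coding sequence, had 33.6, 25.8, 43.7 and 52.3 FPKM in ZH KO against 1.66, 1.22, 0.588 and 1.27 FPKM in ZH Het oocytes. The groups stood far apart, with a log2 fold change of 4.17 (95% interval 3.65 to 4.69, adjusted p = 2.8e-06 from limma). Zscan4f, a near copy of it, had 9.17, 11.4, 21.3 and 20.8 FPKM in ZH KO (log2 fold change 3.68, 95% interval 3.11 to 4.25, adjusted p = 7.9e-06 from limma). In both genes, replicates 3 and 4 were above replicates 1 and 2, as they were in Zscan4d.

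The 3 ps genes had smaller log2 fold changes on this scale, and the difference from the other copies was not tested. For Zscan4-ps2 and Zscan4-ps3 this order depended on the value added before the log. With 0.01 added in place of 1, they had 6.82 and 7.15, against 5.07 for Zscan4c, 4.45 for Zscan4d and 6.21 for Zscan4f. Zscan4-ps1 stayed the lowest at 1.10. Zscan4-ps2 reached 3.37 to 9.69 FPKM (log2 fold change 2.59, 95% interval 2.01 to 3.16, adjusted p = 6.0e-05 from limma) and Zscan4-ps3 1.04 to 5.43 FPKM (1.89, 1.25 to 2.54, adjusted p = 6.5e-04). Zscan4-ps1, already present in the controls, had 34.3, 27.9, 52.3 and 44.8 FPKM, with no overlap with ZH Het, and a log2 fold change of 1.06 (95% interval 0.64 to 1.48, adjusted p = 0.0013 from limma). That is close to the fold threshold of 2: its log2 fold change was 0.92 without ZH KO replicate 3 and 0.99 without replicate 4, and 0.91 under median scaling or quantile normalization, so that it was then not called although its adjusted p was at most 0.0057 in these fits. Zscan4-ps3, with the lowest mean of the 6 (1.55 FPKM), fell below the filter without ZH KO replicate 4.

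Of the 5792 genes tested in ZH oocytes, 10.5% were called higher in ZH KO (adjusted p below 0.05 and more than 2-fold), and 6 of the 6 members tested were. Het and KO libraries did not overlap for all 6, against 46.9% of genes tested. The median log2 fold change was 3.14 over the 6 members and -0.04 over all genes. Members other than Zscan4-ps1, Zscan4c and Zscan4d averaged below 1 FPKM in ZH Het oocytes and passed the filter through their KO levels alone, so these counts and this median only describe the members. Among the 3 members below the filter, Zscan4a had 0.0529 to 0.464 FPKM and Zscan4e 0.0405 to 0.208 FPKM in ZH KO, each above all ZH Het libraries (exact permutation of the 8 libraries, two-sided p = 0.0286 for each gene, and 4 against 4 can give none lower). Zscan4b had at most 0.0977 FPKM in any library (exact p = 0.143).

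The family's composition differed in every ZH KO library from every ZH Het library. The share of Zscan4-ps1 in the summed level was 29.2%, 24.9%, 25.2% and 21.1% in ZH KO replicates 1 to 4. Zscan4d took 8.46% to 14.1% of the family in Het libraries and 28.9% to 38.9% in KO libraries. Zscan4c took 2.79% to 7.76% and 21.01% to 28.7% in the same order. Zscan4f took 0.240% to 1.57% in Het and 7.82% to 10.2% in KO oocytes. Zscan4c, Zscan4f and Zscan4-ps2 together took 4.47% to 8.80% and 34.3% to 39.6%. The summed level was 112 to 213 FPKM in ZH KO oocytes, a mean 7.34 times that of ZH Het. The sum of the oocyte markers moved the other way, from 3395 to 3759 FPKM per ZH Het library to 2001 to 2634 FPKM per ZH KO library. Singly, Ooep had a higher mean in ZH KO (631 against 555 FPKM). The means of all other markers were lower, with overlap in Zp1, Zp2, Zp3, Gdf9 and Nlrp5. The part of the oocyte markers in the members' levels was not tested. The granulosa and cumulus markers also separated the groups, with sums of 0.427 to 0.756 FPKM in ZH Het and 1.04 to 2.15 FPKM in ZH KO libraries. Among them Inha, an inhibin subunit singled out after its values were seen, had at most 0.314 FPKM in ZH Het and 0.687 to 1.53 FPKM in ZH KO, while Foxl2 and Has2 were at 0 in every ZH KO library. The part of these markers in the members' levels was not tested. Without Zscan4-ps1, the mean of the rest was 4.06 ± 0.771 FPKM in ZH Het and 123 ± 45.4 FPKM in ZH KO oocytes (SD, n = 4 each), a ratio of 30.2.

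**Figure D2:**
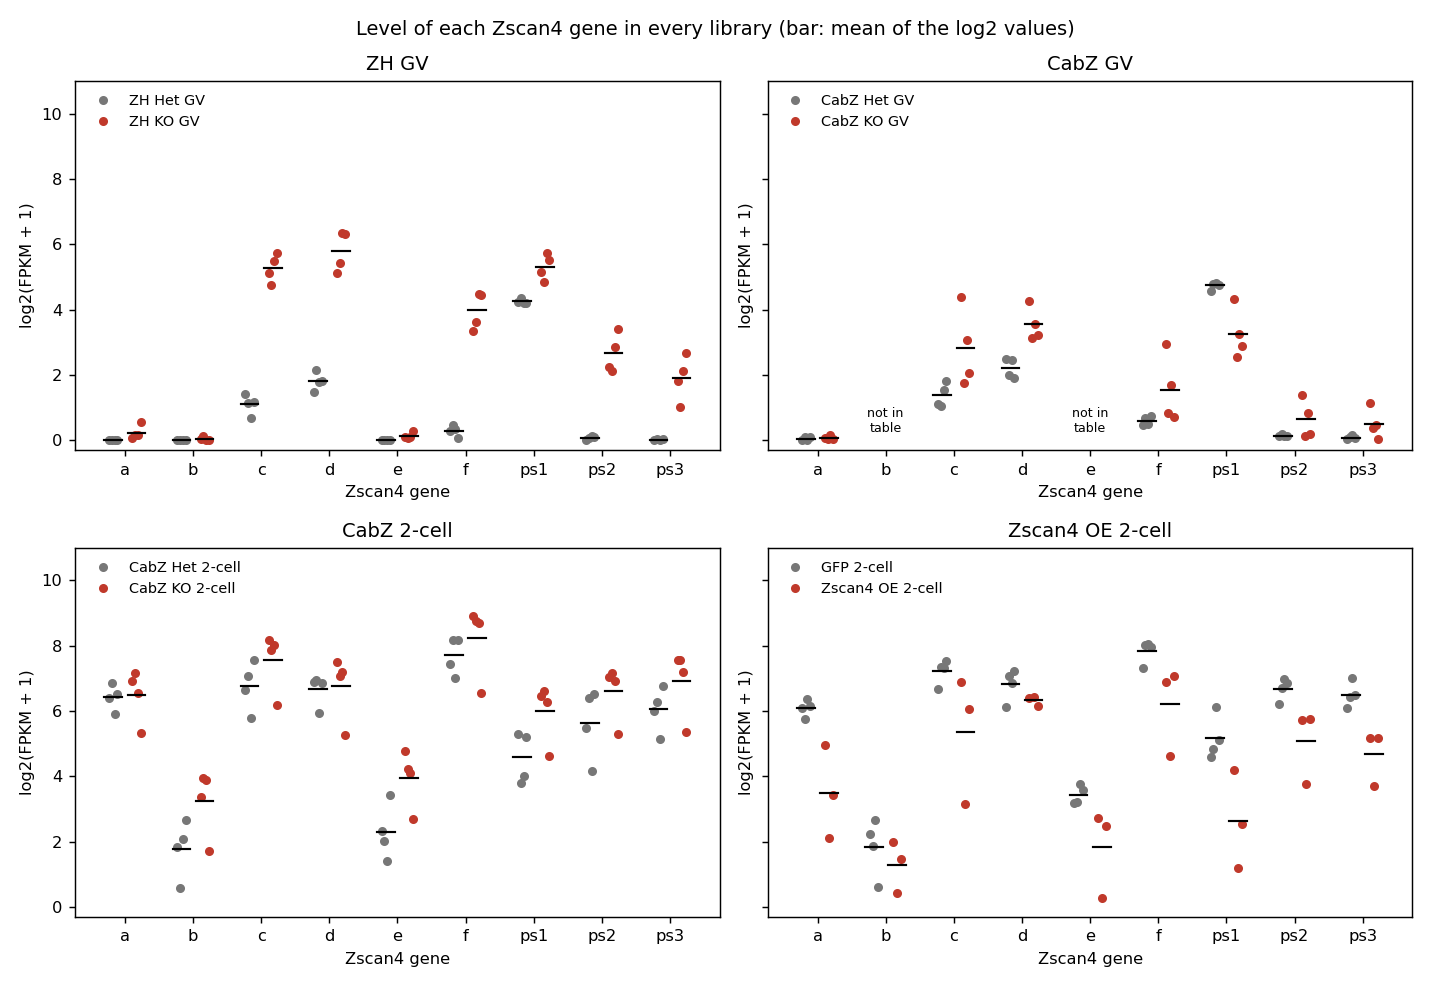
Level of each Zscan4 gene in every library, as log2(FPKM + 1), by table; grey points are controls (Het or GFP), red points KO or Zscan4 OE, and black bars the mean of the log2 values. Zscan4-ps1 is the highest gene in Het GV oocytes of both lines, and Zscan4f in all 4 libraries of each 2-cell control group.

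CabZ Het GV oocytes had the same order of members. Zscan4-ps1 had 23.0, 26.8, 27.3 and 26.1 FPKM, 78.7% to 84.4% of a summed level of 29.2 to 34.3 FPKM, ahead of Zscan4d at 2.78 to 4.55 FPKM and Zscan4c at 1.07 to 2.54 FPKM. The tables of both lines were normalised separately, so these levels are set side by side and not tested.

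In CabZ KO GV oocytes, Zscan4-ps1 fell and Zscan4d rose. Zscan4-ps1 had 19.0, 4.87, 8.51 and 6.44 FPKM in replicates 1 to 4, below all Het libraries, and changed by -1.49 on the log2 scale (95% interval -2.18 to -0.79, adjusted p = 0.012 from limma). Zscan4d had 18.2, 7.73, 10.8 and 8.42 FPKM against 4.55, 3.01, 4.48 and 2.78 FPKM in CabZ Het oocytes (log2 fold change 1.33, 95% interval 0.79 to 1.88, adjusted p = 0.0061 from limma). Here too the groups did not overlap.

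Zscan4c and Zscan4f did not pass the test. Zscan4c had 20.03, 2.34, 7.42 and 3.13 FPKM in CabZ KO against 1.16, 1.07, 1.88 and 2.54 FPKM in CabZ Het oocytes, so that KO replicate 2 lay within the Het range (log2 fold change 1.44, 95% interval 0.33 to 2.54, adjusted p = 0.089 from limma). Without that library it passed (1.79, adjusted p = 0.042). Zscan4f had 6.66, 0.798, 2.20 and 0.652 FPKM against 0.389 to 0.683 FPKM (0.95, 95% interval 0.04 to 1.86, adjusted p = 0.17 from limma). It averaged 0.520 FPKM in CabZ Het oocytes, passed the filter through its KO level and fell below it without KO replicate 1. For the members under the filter the exact permutation test gave p = 0.457 for Zscan4a, 0.200 for Zscan4-ps2 and 0.114 for Zscan4-ps3, each two-sided, on levels of at most 1.62 FPKM.

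CabZ KO replicate 1 was the highest KO library for Zscan4c, Zscan4d, Zscan4f and all 3 ps genes, and its summed level of 66.9 FPKM stood above the 16.1, 30.2 and 18.8 FPKM of replicates 2 to 4. It also had the most Cabin1 RNA of the KO libraries, 0.0482 FPKM against 0.0125 to 0.0231 FPKM, and the part of this in the result was not tested. Without it, Zscan4d and Zscan4-ps1 were both still called. The oocyte markers summed to 4205 to 4316 FPKM in CabZ KO and 4562 to 5220 FPKM in CabZ Het libraries, and their part was not tested either. In CabZ GV oocytes 2.07% of the 6339 genes tested were called higher and 0.836% lower. Of the 4 members tested, 1 was called in each direction, and 2 had groups that did not overlap, against 20.6% of genes tested. With the CabZ values as they stand in the table, Zscan4d was not called (log2 fold change 0.96, adjusted p = 0.028 from limma), and without a filter Zscan4-ps1 was not (adjusted p = 0.058).

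The composition of the family also differed between all CabZ KO and all CabZ Het GV libraries. Zscan4-ps1 took 28.5%, 30.1%, 28.2% and 34.2% of the family in CabZ KO libraries, against at least 78.7% in each Het library. Zscan4d took 27.3% to 47.9% against 8.59% to 15.6%, Zscan4c 14.5% to 30.0% against 3.37% to 7.88%, and Zscan4f 3.46% to 9.97% against 1.21% to 2.11%. None of these ranges overlapped, in KO libraries whose summed level differed by more than 4 times. The summed levels themselves overlapped (16.1 to 66.9 FPKM in KO, 29.2 to 34.3 FPKM in Het), and the mean of the family without Zscan4-ps1 was 23.3 ± 17.0 FPKM in KO and 6.09 ± 0.842 FPKM in Het oocytes (SD, n = 4 each). Shares sum to 100%, so a fall of 1 member's share raises the others, and no share was tested. Among the copies other than the ps genes alone, Zscan4d's share ran from 44.1% to 55.4% in ZH KO and from 49.0% to 74.0% in Het oocytes, and from 40.5% to 71.0% against 45.7% to 74.6% in the CabZ line, with the ranges overlapping in both lines.

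**Figure D3:**
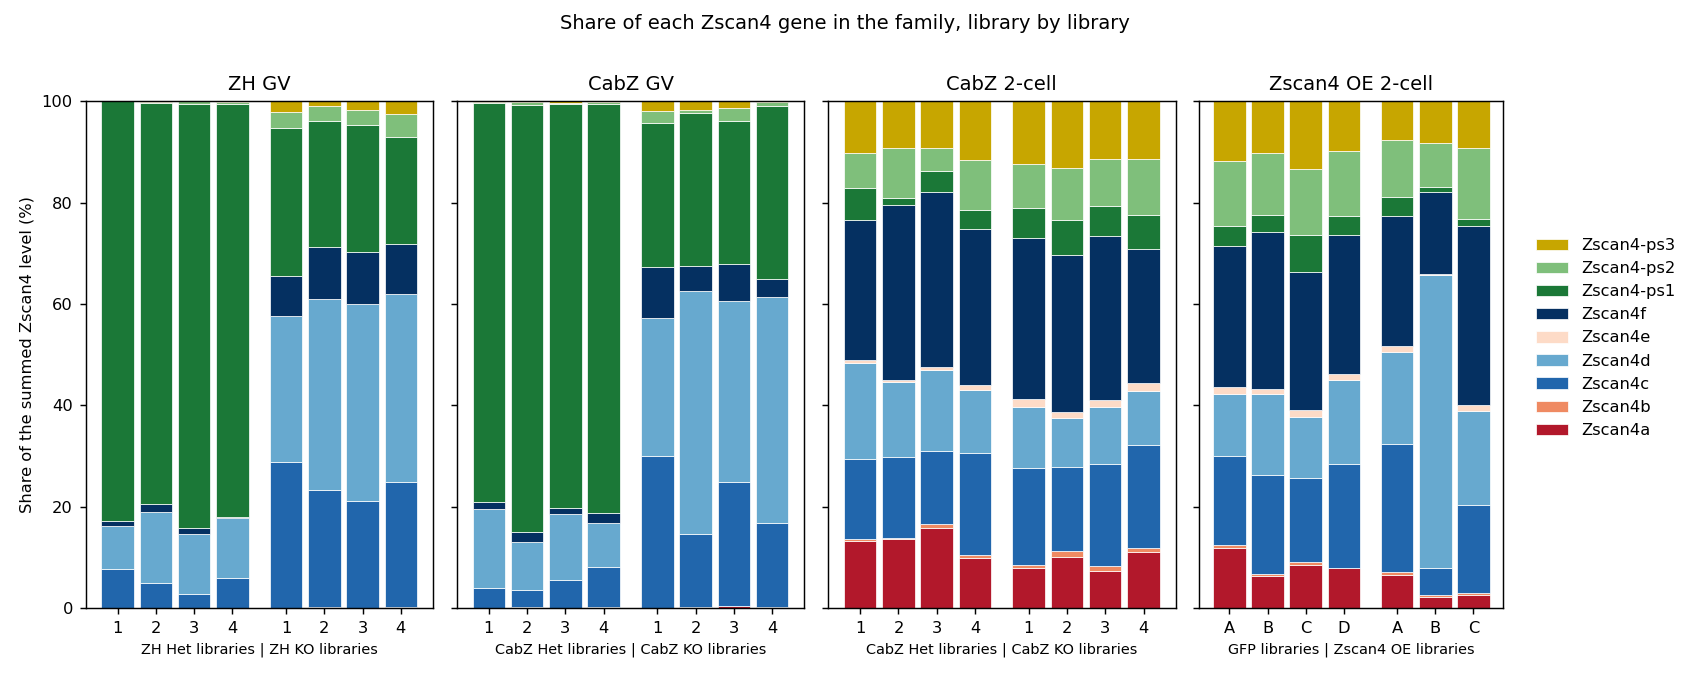
Share of each Zscan4 gene in the summed family level (percent, bars stacked to 100%) in each of the 31 libraries, controls left and KO or Zscan4 OE libraries right in each panel. Zscan4-ps1 (dark green) takes at least 78.7% in each Het GV oocyte library and at most 34.2% in each KO GV oocyte library, and Zscan4d (light blue) takes 57.8% in Zscan4 OE replicate B.

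At the 2-cell stage the members stood at other levels and in another order, which is given beside the oocytes without a test because the tables were made separately. In CabZ Het 2-cell embryos the summed level was 623, 837, 373 and 929 FPKM, against 29.2 to 34.3 FPKM in CabZ Het GV oocytes. Zscan4f led with 172, 290, 129 and 285 FPKM (27.7% to 34.7% of the family), where the GV oocytes had at most 0.683 FPKM. Zscan4c (53.7 to 187 FPKM) and Zscan4d (59.9 to 124 FPKM) followed with overlapping ranges, and Zscan4a, near 0 in GV oocytes, had 58.5 to 115 FPKM. Zscan4-ps1 was the exception: with 38.5, 12.8, 15.2 and 35.8 FPKM it spanned its own GV range of 23.0 to 27.3 FPKM. It thus took 1.53% to 6.18% of the family in 2-cell embryos. Zscan4b (0.486 to 5.31 FPKM) and Zscan4e (1.65 to 9.74 FPKM) were the lowest members.

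In CabZ KO 2-cell embryos, Zscan4e and Zscan4-ps1 were called higher and the other 7 members were not called. Zscan4e had 26.3, 17.7, 16.3 and 5.43 FPKM against 4.03, 3.03, 1.65 and 9.74 FPKM in CabZ Het embryos, a log2 fold change of 1.66 (95% interval 0.50 to 2.81, adjusted p = 0.021 from limma). Zscan4-ps1 had 87.1, 97.4, 76.1 and 23.6 FPKM against the values above (log2 fold change 1.41, 95% interval 0.27 to 2.55, adjusted p = 0.038 from limma). In both genes KO replicate 4 lay within the Het range and the other 3 KO libraries above it.

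The most abundant copies did not pass. Zscan4f had 478, 434, 414 and 92.8 FPKM in CabZ KO embryos (log2 fold change 0.53, 95% interval -0.65 to 1.70, adjusted p = 0.42 from limma) and Zscan4c 287, 235, 256 and 71.5 FPKM (0.80, -0.33 to 1.92, adjusted p = 0.20). Zscan4d had 180, 134, 145 and 37.8 FPKM (0.10, -0.96 to 1.16, adjusted p = 0.87), and Zscan4a 119, 143, 92.3 and 39.0 FPKM (0.07, -0.81 to 0.95, adjusted p = 0.89). In all 4, KO replicate 4 was below every Het library or within their range and at least 1 other KO library above it. Zscan4b had 2.28 to 14.4 FPKM (1.45, 0.18 to 2.72, adjusted p = 0.053 from limma, and called under median scaling, quantile normalization or a mean of at least 5 FPKM, with adjusted p = 0.025, 0.039 and 0.041), Zscan4-ps2 38.7 to 144 FPKM against 16.8 to 91.8 FPKM (0.97, -0.33 to 2.27, adjusted p = 0.18) and Zscan4-ps3 40.2 to 187 FPKM against 34.5 to 107 FPKM (0.86, -0.30 to 2.03, adjusted p = 0.18). These intervals reach more than 1 unit upward for all but Zscan4a, so that a 2-fold rise lies within them.

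CabZ KO 2-cell replicate 4 was the lowest KO library for all 9 members, with a summed level of 351 FPKM against 1503, 1406 and 1277 FPKM in replicates 1 to 3. It also had the least Cabin1 RNA of all CabZ 2-cell libraries (0.0640 FPKM) and correlated least with its group, and the part of either in the result was not tested. Without it, 6 of the 9 members were called higher (Zscan4b, Zscan4c, Zscan4e, Zscan4f, Zscan4-ps1 and Zscan4-ps3, with log2 fold changes from 1.09 to 2.08). Without CabZ Het replicate 2, CabZ Het replicate 3 or CabZ KO replicate 1 none was called, without CabZ KO replicate 2 or 3 only Zscan4e was, and without CabZ Het replicate 4 Zscan4b was called in addition.

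Of the 7798 genes tested in CabZ 2-cell embryos, 16.9% were called higher, and 2 of 9 members were. Het and KO libraries did not overlap for 51.0% of genes tested and for 0 of the 9 members. The 10 oocyte markers summed to 419 to 997 FPKM in CabZ KO and 143 to 223 FPKM in CabZ Het embryos, and the part of this difference in the members' levels was not tested. The 3 sperm and male germ cell markers summed to 3.90 to 7.21 FPKM in CabZ Het and 2.48 to 2.71 FPKM in CabZ KO embryos, again without overlap. Within that list Tnp1 was higher in every Het library (3.63 to 6.47 FPKM against 0 to 0.764 FPKM) and Prm2 in every KO library (1.85 to 2.69 FPKM against 0 to 0.740 FPKM), and the part of these markers was not tested either. Zscan4d took 11.96%, 9.56%, 11.3% and 10.7% in CabZ KO against 18.8%, 14.8%, 16.1% and 12.4% in CabZ Het embryos, and Zscan4e 1.26% to 1.75% against 0.361% to 1.05%, without overlap in either case. Zscan4f took 26.4% to 32.4% in KO, overlapping with the 27.7% to 34.7% of Het embryos, and Zscan4c, Zscan4f and Zscan4-ps2 together took 57.8% to 61.8% in KO and 50.5% to 60.7% in Het embryos. For Zscan4d and Zscan4e, KO replicate 4 (10.7% and 1.54%) lay within the range of the other 3 KO libraries, although its summed level was the lowest.

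**Figure D4:**
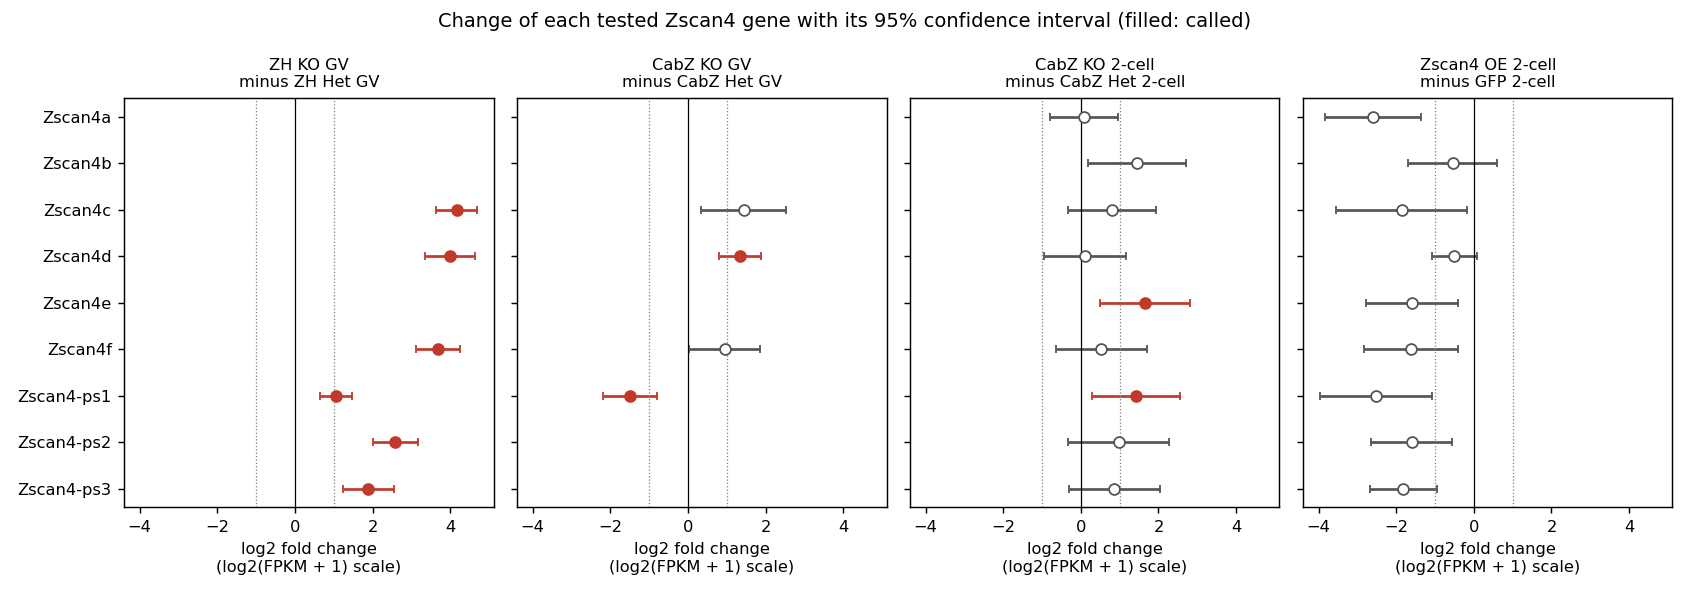
Log2 fold change of each tested Zscan4 member in each comparison, on the log2(FPKM + 1) scale, with its 95% confidence interval from limma; filled red points were called, open points were not, dotted lines mark 2-fold, and a missing point is a member under the filter or not in the table. All 6 points lie right of 0 in ZH KO oocytes and all 9 lie left of 0 for Zscan4 OE, of which 0 were called.

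In 2-cell embryos from injected oocytes, RNA of the injected gene itself was not higher in the libraries labelled Zscan4 OE. The paper reports more Zscan4 after injection than in uninjected oocytes, by qRT-PCR, immunofluorescence and western blot. The values here are from another stage and are set against another control, GFP embryos. Zscan4d had 83.7, 84.3 and 70.3 FPKM in replicates A to C, inside the range of the GFP controls (69.4, 134, 116 and 149 FPKM in A to D). The log2 fold change was -0.50 (95% interval -1.08 to 0.08, adjusted p = 0.31 from limma). Injected Zscan4d RNA and the embryo's own transcript share one row in the table and cannot be told apart there, and the sequence of the injected RNA is not in the files used.

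The other 8 members also had lower means in the libraries labelled Zscan4 OE, and 0 passed the limma test across all genes. Zscan4a had 30.2, 3.30 and 9.70 FPKM against 67.2, 53.3, 81.5 and 70.5 FPKM in GFP embryos (log2 fold change -2.60, 95% interval -3.84 to -1.35, adjusted p = 0.057 from limma). Zscan4-ps3 had 35.4, 12.0 and 35.1 FPKM against 67.2 to 129 FPKM (-1.82, -2.68 to -0.96, adjusted p = 0.053), and Zscan4-ps1 17.3, 1.30 and 4.81 FPKM against 22.9 to 68.3 FPKM (-2.52, -3.96 to -1.07, adjusted p = 0.096). Zscan4f had 119, 23.8 and 133 FPKM against 159, 258, 262 and 247 FPKM (-1.63, -2.84 to -0.42, adjusted p = 0.15). In each of these 4 genes every library labelled Zscan4 OE was below every GFP library.

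Zscan4-ps2 (52.4, 12.7 and 52.8 FPKM against 73.7 to 125 FPKM) and Zscan4e (5.59, 0.219 and 4.62 FPKM against 8.04 to 12.6 FPKM) did not overlap with GFP embryos either. Zscan4c had 116, 7.93 and 65.4 FPKM against 101 to 184 FPKM and Zscan4b 3.01, 0.341 and 1.78 FPKM against 0.538 to 5.30 FPKM, both with overlap. Groups thus did not overlap for 6 of the 9 members, all 6 lower in the libraries labelled Zscan4 OE, against 18.2% of the 4293 genes tested, in either direction. The limma test called 0 members in either direction, where 1.42% of genes were called lower and 0.0233% higher. An unadjusted p below 0.05 was found for 7 of the 9 members (all but Zscan4b and Zscan4d) and for 19.8% of genes tested. The median log2 fold change was -1.63 over the 9 members and 0.03 over all genes. The members are near-identical copies and cannot be taken as independent, so these counts and this median only describe the members. Zscan4a and Zscan4-ps3 were called lower under median scaling, quantile normalization or a filter of a mean of at least 5 FPKM. Without Zscan4 OE replicate A, Zscan4a and Zscan4-ps1 were called lower (adjusted p = 0.0094 and 0.027), and without replicate C Zscan4-ps3 was (adjusted p = 0.048). Without replicate B, 0 members were called and the median log2 fold change over the members was -0.85, so the size of the fall depended on that library.

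Zscan4 OE replicate B had the lowest summed level, 146 FPKM against 463 and 378 FPKM in replicates A and C and 572 to 959 FPKM in GFP embryos. It was the lowest library for every member except Zscan4d, for which it was the highest of the 3. Zscan4d therefore made up 57.8% of the family in replicate B, 18.1% in A and 18.6% in C, against 12.1% to 16.5% in GFP embryos, so that its share lay above all controls in all 3 libraries. The ratio of Zscan4d to Zscan4c was 10.6 in replicate B, 0.720 in A and 1.07 in C, and 0.686 to 0.822 in GFP embryos. Zscan4c, Zscan4f and Zscan4-ps2 together took 30.5% to 66.6% in the libraries labelled Zscan4 OE and 57.0% to 62.8% in GFP embryos. The family without Zscan4d averaged 249 ± 166 FPKM (SD, n = 3) in the libraries labelled Zscan4 OE and 699 ± 144 FPKM (SD, n = 4) in GFP embryos. The oocyte markers overlapped between these groups (575 to 731 and 461 to 712 FPKM).

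Chromatin accessibility was available for CabZ GV oocytes, as ATAC-seq peaks that the authors called in each of 3 Het and 3 KO libraries. No peak lay within 2000 bases of any of the 9 members in any library. Over all 55450 genes of GENCODE M21, 53.8% had a peak within the same window in at least 1 library, and 14.4% to 45.3% per library. Within the stretch from Zscan4a to Zscan4-ps3, 7 peaks were called in all (3 in 2 Het libraries and 4 in 2 KO libraries), the nearest to a member being 13089 bases from Zscan4-ps2 in CabZ KO replicate C. Only reads with a unique alignment had been kept, and the part of the members' similarity in this count was not tested.

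Genes known to act on the family or beside it were counted in the same tables. Of 7 activators listed, 2 were tested in ZH oocytes and Nelfa, which activates the 2-cell programme, was called lower in ZH KO (0.597 ± 0.384 against 2.61 ± 0.512 FPKM, SD, n = 4 each, log2 fold change -1.19, adjusted p = 6.8e-04 from limma). Dppa2, the other gene tested, went up but stayed under the fold threshold (14.3 ± 3.91 against 8.30 ± 0.517 FPKM, log2 fold change 0.69, adjusted p = 0.0096 from limma). Over all genes tested in ZH oocytes, 10.5% were called higher and 7.20% lower. None of 3 tested was called in CabZ oocytes, where 2.07% of all genes tested were called higher and 0.836% lower. Dppa4 went down in CabZ KO but stayed under the fold threshold (1.21 ± 0.445 against 2.65 ± 0.590 FPKM, log2 fold change -0.73, adjusted p = 0.020 from limma). In ZH oocytes Dppa4 was under the filter, with 0.319 to 0.521 FPKM in ZH KO and 1.41 to 1.80 FPKM in ZH Het. In CabZ KO 2-cell embryos Duxf3, which encodes Dux, was called higher (2.35 ± 1.85 against 0.230 ± 0.376 FPKM, log2 fold change 1.32, adjusted p = 0.017 from limma). It passed the filter through its KO level. Dppa4 (8.80 ± 3.60 against 40.9 ± 8.08 FPKM, -2.17, adjusted p = 6.0e-04) and Dppa2 (6.32 ± 1.81 against 14.4 ± 2.27 FPKM, -1.10, adjusted p = 0.0031), activators of Dux, were called lower. In these embryos 4 activators were tested, and 16.9% of all genes tested were called higher and 20.4% lower. None of the 3 tested was called in the libraries labelled Zscan4 OE, where 0.0233% of all genes tested were called higher and 1.42% lower.

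Of 16 repressors listed, 0 of 7 were called in ZH and 0 of 8 in CabZ oocytes, and 0 of 5 in the libraries labelled Zscan4 OE. Over all genes tested, 10.5% were called higher and 7.20% lower in ZH and 2.07% and 0.836% in CabZ oocytes. For Zscan4 OE these shares were 0.0233% and 1.42%. In CabZ KO 2-cell embryos Sumo2 was called lower (8.62 ± 1.99 against 51.3 ± 13.7 FPKM, log2 fold change -2.44) and Pcgf6, of a Polycomb complex, higher (33.2 ± 2.10 against 14.1 ± 3.93 FPKM, 1.21), of 7 tested. Such counts are near the shares over all genes tested there, 16.9% higher and 20.4% lower.

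Other genes of the 2-cell programme are transcribed in the same burst. Over all genes tested in ZH oocytes, 10.5% were called higher and 7.20% lower. In ZH KO oocytes 6 of 10 tested were called higher and 0 lower, led by Usp17lb (34.9 ± 32.8 against 0.0776 ± 0.0467 FPKM), Gm5039 (34.9 ± 12.97 against 0.669 ± 0.332 FPKM) and Usp17lc. Of the 27 in that table only these 10 passed the filter, and 5 of the 6 called averaged below 1 FPKM in ZH Het oocytes and so passed through their KO levels alone, so this count and the median of the list only describe those 10 genes. In CabZ KO oocytes 1 of 7 was called, Gm5039 (16.6 ± 3.26 against 1.40 ± 0.359 FPKM, log2 fold change 2.87). The shares over all genes tested there were 2.07% higher and 0.836% lower. In CabZ KO 2-cell embryos 6 of 30 were called higher, led by Gm5039, Gm8300 and Gm2022 (log2 fold changes 2.92, 2.52 and 2.19), and 5 lower, shares near those over all genes tested there (16.9% higher and 20.4% lower). In the libraries labelled Zscan4 OE 0 of 28 were called higher and 2 lower, Gm2016 (8.46 ± 6.54 against 34.7 ± 4.42 FPKM) and Tdpoz1 (0.487 ± 0.234 against 2.99 ± 0.405 FPKM). Among all genes tested for Zscan4 OE, 0.0233% were called higher and 1.42% lower. The medians over the list were 1.65, 0.18, 0.42 and -0.74 in the 4 comparisons in this order, beside -0.04, -0.02, -0.11 and 0.03 over all genes. Several of these genes, the Usp17l and Tdpoz families among them, also have near-identical copies.

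Of the telomere genes, 2 of 7 tested were called higher in ZH KO oocytes (Tcstv3 and Terf2ip, log2 fold changes 1.90 and 1.47) and 1 lower (Acd, -1.11), where 10.5% of all genes tested were called higher and 7.20% lower. Terf2ip averaged 0.244 FPKM in ZH Het oocytes and passed the filter through its KO level. In CabZ KO 2-cell embryos Terf2ip, which encodes the shelterin protein Rap1, was called higher (1.24) and Terf1, which encodes a protein that binds telomere repeats, lower (-1.58), of 7 tested, which is near the background. None of 6 was called in CabZ oocytes and none of 5 in the libraries labelled Zscan4 OE. Over all genes tested, 2.07% were called higher and 0.836% lower in CabZ oocytes, and 0.0233% and 1.42% for Zscan4 OE.

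Across the 31 libraries, with each group's mean removed, the genes whose log2 level followed the summed family level most closely were Rpp14 (Pearson r = 0.731), Gm7682 (0.713), Gm12183 (0.701), Gm11487 (0.679) and Gm21762 (0.658), of 3293 genes compared. These correlations were picked for their size and were not tested. They describe deviations within groups, and libraries of a group share their table's normalization.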

How the data were processed

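RNA-seq was measured in 31 libraries (Smart-seq2 v4, paired-end reads) and ATAC-seq in 6 libraries of CabZ GV oocytes. The authors trimmed reads with TrimGalore, aligned them to GRCm38/mm10 with STAR (2.5.3a in the submitters' processing notes) and made gene tables in Partek Flow. As deposited by the authors, values of the ZH and Zscan4 experiments are FPKM over the whole gene span, with 0.01 (ZH) or 0.001 added. Both CabZ tables hold a score deposited by the authors, which falls with the square of the span, has 1 total for all libraries and has 0.01 added. The authors' ATAC-seq peaks (Bowtie2 2.3, unique alignments, MACS2 for each library) come with a score, a fold enrichment ratio and −log10 p and q values, as deposited. Strand and multi-mapping settings are not given in the sources used here.

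Offsets were subtracted, and CabZ scores were multiplied by the span and scaled to the reads of each library to give FPKM. The test is the one planned for FPKM. Within each table, limma 3.58.1 (R 4.3.3) was run on log2(FPKM + 1) for every gene averaging 1 FPKM or more, with Benjamini-Hochberg adjustment over all of them, and genes with an adjusted p below 0.05 and a fold change above 2 were called. Members under that filter had an exact permutation test. The code was tested on simulated data. Reads per gene were recovered from the smallest steps of the values and serve as depth. A share is a member's level over the family's summed level in the same library. The members and lists were chosen with earlier results of these data known. All members were named, with at most 3 called genes per list and comparison and the 5 genes most like the family. Alternatives were pseudocount, filter, scaling, moderation, fold threshold, replicate block, CabZ values as deposited, the make-up of the sum, peak threshold and window, and leaving out each library.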

Additional observations from a re-analysis of the deposited data

Results flagged for a closer look

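Zscan4-ps1 moved in opposite directions in the knockout oocytes of the ZH and CabZ lines. Its log2 fold change was 1.06 in ZH KO oocytes, where all 4 KO libraries were above the Het mean, and -1.49 in CabZ KO oocytes, where all 4 were below it. The tables were normalised separately and the difference between the lines was not tested.

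In 5 of 54 groups of 4 libraries (9 members where tested, and the summed family), 1 library lay apart from the other 3 by Dixon's test at the 95% level. Chance gives about 1 in 20. Zscan4-ps1 was highest in ZH Het replicate 2 (19.6 FPKM, next 17.7 FPKM), as was the summed family (24.7 FPKM, next 21.4 FPKM). Zscan4d was lowest in CabZ Het 2-cell replicate 3 (59.9 FPKM, next 116 FPKM). Zscan4f was lowest in CabZ KO 2-cell replicate 4 (92.8 FPKM, next 414 FPKM) and in GFP replicate A (159 FPKM, next 247 FPKM).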

How the results depend on the processing

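The number of members called in ZH oocytes was 6, and 4 to 6 under the alternatives and with 1 library left out. In CabZ oocytes 2 members were called, 1 without a filter and 1 with values as deposited, and 2 to 3 with 1 library left out. In CabZ 2-cell embryos 2 were called, 1 with a pseudocount of 0.1 or 0.01, 0 without a filter, 3 under median scaling, quantile normalization or a minimum mean of 5 FPKM, 5 with values as deposited, and 0 to 6 with 1 library left out. For Zscan4 OE 0 were called, 2 with a mean of at least 5 FPKM, median scaling or quantile normalization, and 0 to 2 with 1 library left out. The causes were not tested. Log2 fold changes near 0 in CabZ 2-cell embryos changed sign with 1 library left out: Zscan4a ranged from -0.16 to 0.46, negative without CabZ Het replicate 3 (-0.10), CabZ KO replicate 1 (-0.07) or 2 (-0.16), and Zscan4d from -0.15 to 0.59, negative without CabZ Het replicate 3 (-0.14), CabZ KO replicate 1 (-0.15), 2 (-0.01) or 3 (-0.04). No other tested member changed direction.

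Same-numbered libraries did not deviate together (r from -0.407 to 0.395 in the ZH line and -0.18 to 0.148 elsewhere), so numbers were not taken as pairs. With a replicate block, 1 member was called in CabZ 2-cell embryos (Zscan4e), and the number of members called in the other 3 comparisons was the same. Among all genes, 2 were called for Zscan4 OE with the block and 62 without it.

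The difference in Zscan4d's mean share (24.1 percentage points in ZH, 27.2 in CabZ oocytes) became -13.2 and -4.28 with the 3 ps genes left out of the sum, since Zscan4-ps1 then leaves the denominator. With 1 library left out it was 23.0 to 26.4, 24.2 to 31.1, -5.66 to -3.53 (CabZ 2-cell) and 4.16 to 24.0 (Zscan4 OE). Zscan4-ps1's ranges were -58.1 to -55.4, -52.0 to -49.5, 1.64 to 3.19 and -3.46 to -1.72. Median scaling moved the median of all genes to -0.19 (ZH), 0.13 (CabZ 2-cell) and 0.13 (Zscan4 OE). Over all genes, 606 were called higher and 417 lower in ZH KO, 471 and 627 under median scaling, 958 and 372 with scaling to the reads of the table, 849 and 796 with a pseudocount of 0.1, 864 and 835 with 0.01, 312 and 266 over genes averaging 5 FPKM or more, and 1485 and 1521 without the fold threshold. In CabZ KO oocytes they were 131 and 53, 227 and 101 with a pseudocount of 0.1, 239 and 104 with 0.01, 73 and 36 over genes averaging 5 FPKM or more, and 520 and 363 without the fold threshold. In CabZ KO 2-cell embryos they were 1320 and 1594, 1757 and 1126 under median scaling, 641 and 1009 over genes averaging 5 FPKM or more, 1963 and 2413 without the fold threshold, and 1124 and 372 with values as deposited. For Zscan4 OE they were 1 and 61, 1 and 31 with a pseudocount of 0.01, 0 and 5 without a filter, 0 and 2 with the replicate block, and 0 to 10 higher and 18 to 99 lower with 1 library left out. Scaling to the reads of the table is how the CabZ values were made, so it was no alternative there. No ATAC-seq peak lay at a member with a minimum −log10 q of 5, without the added window or without any 1 library.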
